A study of Mus musculus with 3 samples.

Results

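The mitochondrial ribosomal protein genes were followed across mouse dendritic cells given LPS with 8-Br-cAMP, given LPS, or left unstimulated. All genes were taken whose platform symbol starts with Mrpl or Mrps followed by a number and that have a probe set of their own. They were 76 of the 18193 genes with such a probe set, 47 named Mrpl and 29 named Mrps. RefSeq lists 78 protein-coding genes of these names in mouse. The other two, Mrpl30 and Mrpl53, have only probe sets shared with another gene. Dendritic cells present antigen to T cells, and these were raised from mouse bone marrow (BMDCs) over 10 days in 10 ng/ml of GM-CSF, a myeloid growth factor. One culture, LPS+8-Br-cAMP, received 10 ng/ml of lipopolysaccharide (LPS), a bacterial cell wall component sensed by Tlr4, together with 100 µM of 8-Br-cAMP, a cell-permeable analogue of cyclic AMP, for 3 h. The LPS culture had the same LPS for 3 h without the analogue, and the unstimulated culture had neither. The labels give no strain, age or number of mice, and no array had 8-Br-cAMP alone. Each condition was measured on 1 Affymetrix mouse expression array, so there is no replicate, no test was made, and the number of arrays limits the precision of every value.

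Mitochondria keep a ribosome of their own that translates the few messenger RNAs of the mitochondrial genome, which encode core subunits of the respiratory chain and of ATP synthase. Its proteins are all encoded in the nucleus, made in the cytosol and imported. Some descend from the ribosomal proteins of bacteria and others were added in the mitochondrial line. Dendritic cells activated by LPS are known to turn to glycolysis, and the protein supply of the mitochondrial ribosome (mitoribosome) is one part of respiratory capacity.

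Array signals were scaled so that the 3 arrays had the same trimmed mean, and signals under a floor of 32.5 scaled units, the highest array median, were set to it. Differences are log2 differences between arrays, and a log2 difference of 1 is 2-fold. By the difference between pairs of probe sets of 1 gene, the error of 1 probe set was 0.45 for LPS minus unstimulated, 0.48 for LPS+8-Br-cAMP minus LPS and 0.57 for LPS+8-Br-cAMP minus unstimulated. This is error within these arrays, not the spread between cultures. The deposited median signal was 19.8 for LPS+8-Br-cAMP, 33.4 for LPS and 42.6 for unstimulated cells. The dendritic markers H2-Aa, Cd74 and Itgax were high on all 3 arrays, the lowest of these signals being 1165 for Itgax with LPS+8-Br-cAMP. H2-Ab1, H2-Eb1 and Ccr7 were bright as well, but the dendritic markers Zbtb46, Batf3 and Flt3 were dim. Flt3, near the floor, had 49.6 with LPS+8-Br-cAMP, 36.8 with LPS and 60.0 unstimulated. The macrophage marker Csf1r was bright too, at 8465, 7691 and 7593 in the same order. The LPS+8-Br-cAMP culture stood apart in other transcripts. Xist, made in female cells, had a signal of 1716 there, against 8.08 with LPS and 32.3 unstimulated, and the Y-linked Eif2s3y had 1.24, 272 and 352 in the same order. The summed signal of 15 granulocyte markers was 25940.2 with LPS+8-Br-cAMP, 49024 with LPS and 46715 unstimulated, and that of 8 B and plasma cell markers was 312, 3132 and 5127. Those of 10 dendritic markers were 52248, 40565 and 33081, and those of 7 macrophage markers were 20174, 24251 and 24242. Sums of 5 eosinophil and mast cell markers were 535, 1653 and 1654. Their part in the results on LPS+8-Br-cAMP was not tested. LPS minus unstimulated does not use that array, but B and plasma cell markers differed there too. All 7 measured were lower with LPS (median log2 difference -0.80), beside 61.8% of all measured genes (median -0.21). Medians there were -0.006 for granulocyte, -0.02 for macrophage and 0.25 for dendritic markers. The part of such markers in that comparison was not tested either. None of the 76 genes is on a sex chromosome in RefSeq (0 on X or Y). In bulk RNA, fewer cells of a type and less RNA per cell cannot be told apart.

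The mitoribosomal genes were mostly lowest on the LPS array. Their scaled signals ran from 9.64 to 901 with LPS+8-Br-cAMP (median 214), from 34.9 to 728 with LPS (median 164) and from 54.6 to 720 unstimulated (median 266). All 76 were above the floor with LPS and unstimulated, and 75 with LPS+8-Br-cAMP, the exception being Mrps27, a small-subunit protein of the pentatricopeptide repeat kind. So none was lost to the filter on dim signals. The LPS array held the lowest signal of 52 of the 76 genes (68.4%), whereas it was the lowest for 35.4% of 13289 genes above the floor on at least 1 array. It held the highest signal of 2 of the 76 (2.63%), against 22% of all those genes. Those 2 were Mrpl39 and Mrps28. The unstimulated array held the highest signal of 46 of the 76 (60.5%). It did so for 45.4% of all those genes and 51.3% of those with a mean signal in the range of the 76. LPS+8-Br-cAMP held the highest signal of 28 (36.8%), beside 32.6% and 28.1% in the same order.

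**Figure D1:**
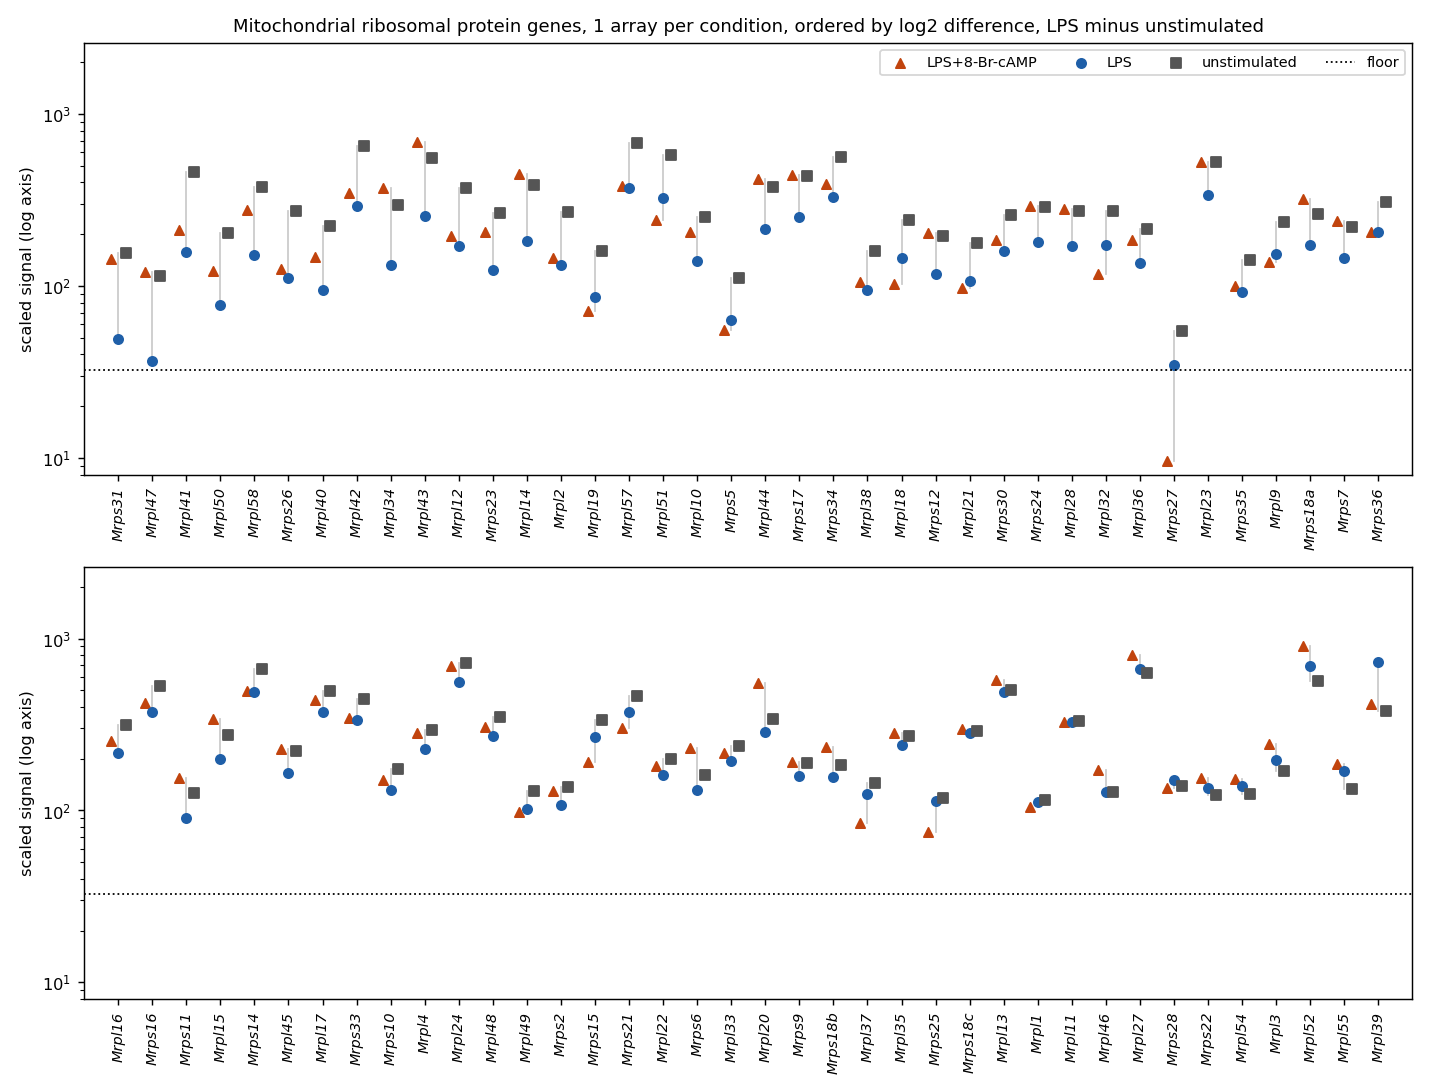
Scaled signal (log axis) of the 76 mitoribosomal genes on the LPS+8-Br-cAMP array (triangles), the LPS array (circles) and the unstimulated array (squares), 1 array each, with genes ordered by the log2 difference, LPS minus unstimulated. The LPS circle is the lowest of the 3 for 52 genes, Mrps27 alone goes under the dotted floor, and Mrpl39, last in the lower row, stands highest with LPS (728).

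LPS was first set beside no stimulation. With LPS, 67 of the 76 mitoribosomal genes were lower (88.2%), by a median log2 difference of -0.57. Of all 12283 measured genes 61.8% were lower, with a median of -0.21. At 1.5-fold, 38 of the 76 were lower (50%) beside 28.6% of all genes, and 1 was higher (1.32%) beside 13.9%. At 2-fold, 14 were lower (18.4%) beside 13% of all genes, and 0 were higher beside 6.64%. The shift was thus modest in size and wide, and the share past 2-fold lay near that of all genes. Mitoribosomal genes are mid-level on this array, so genes with a mean signal in the same range, 33 to 721, were also set beside them, a choice made after seeing the data. Of 9755 such genes 65.5% were lower, 33.4% by 1.5-fold and 15.8% by 2-fold, with a median of -0.29. The median of the 76 remained below that of all genes under each scaling tried.

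**Figure D2:**
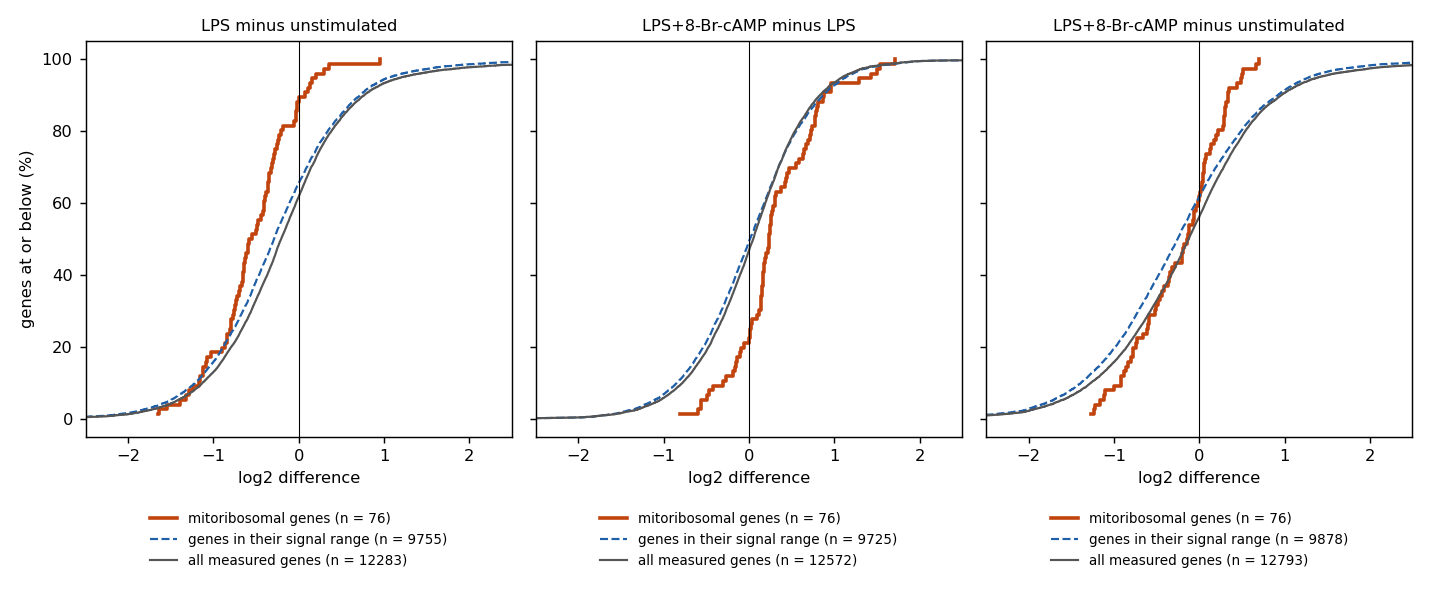
Cumulative share of genes (%) at or below a log2 difference, for the 76 mitoribosomal genes (thick line), for all genes of the same signal range (dashed) and for all measured genes (thin), in the 3 comparisons. For LPS minus unstimulated the mitoribosomal curve lies left of the others through most of its range (median -0.57 against -0.21 for all genes). For LPS+8-Br-cAMP minus LPS it lies right of them at the median (0.23 against 0.049) and meets them near the 2-fold mark. For LPS+8-Br-cAMP minus unstimulated its median is close to that of all genes (-0.14 against -0.12). Genes of the same signal range have a median of -0.25 there.

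The large subunit had 11 of its 49 genes at least 2-fold lower with LPS (22.4%), beside 13% of all measured genes. Of the 11, 1 each was at the tunnel exit, the stalk and the central protuberance. Mrpl47, at the mouth of the tunnel through which the new protein leaves, had 36.8 scaled units with LPS and 115 unstimulated, a log2 difference of -1.64. Its LPS signal was close to the floor, and another, dimmer probe set that was above the floor only with LPS gave 0.25. With the floor at the 75th percentile Mrpl47 differed by -0.07, and its mean over probe sets by -0.69. Mrpl41, a mitochondrion-specific protein, had 158 with LPS and 462 unstimulated (-1.55), and its second probe set gave -1.37. Another Mrpl41 probe set, barely above the floor, gave 0.012. Both of its bright probe sets were thus over 2-fold lower with LPS, while the mean over its probe sets gave -0.97. Mrpl50, also mitochondrion-specific, had 77.3 with LPS and 203 unstimulated (-1.40), and -0.66 by its other probe set, and -0.90 with the floor at the 75th percentile. Mrpl58, a release factor relative that frees stalled mitoribosomes and is also built into the large subunit, had 150.5 with LPS and 378 unstimulated (-1.33). Mrpl40, of the central protuberance, had 94.5 with LPS and 223 unstimulated (-1.24). Mrpl40 has a single probe set, so no second measurement bears on it.

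Further large-subunit genes passed 2-fold. Mrpl12, of the stalk that recruits translation factors, had 170 with LPS and 370 unstimulated (-1.12). Mrpl2, which lies near the peptidyl transferase centre, had 132 with LPS and 268 unstimulated (-1.02). Mrpl42, Mrpl34, Mrpl43 and Mrpl14 had log2 differences of -1.17, -1.16, -1.13 and -1.08, from LPS signals of 290, 132, 254 and 183. Mrpl34 and Mrpl14 have bacterial homologues, and Mrpl14 sits at the face between the subunits. The small subunit had 3 of its 26 genes past 2-fold (11.5%), all mitochondrion-specific. Mrps31 had 49.3 with LPS and 155 unstimulated (-1.65), the lowest difference of the 76. It gave -0.51 with the floor at the 75th percentile, and Mrpl41 was lower than Mrps31 under quantile normalization (-1.48 against -1.43) and cyclic loess (-1.42 against -1.41). Mrps26 had 111 with LPS and 271 unstimulated (-1.29), and Mrps23 had 124 and 264 (-1.09), but -0.31 by its second probe set and -0.55 as the mean over probe sets.

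Genes that went the other way with LPS were few. Mrpl39, a protein of the tunnel exit region related to threonyl-tRNA synthetase, had 728 with LPS and 377 unstimulated, a log2 difference of 0.95. Its second probe set gave 0.63, so both read higher with LPS. Next came Mrpl55 at 0.35, Mrpl52 at 0.30 and Mrpl3, which reaches towards the peptidyl transferase centre, at 0.21. The second probe sets of Mrpl52 and Mrpl3 gave -0.22 and -0.68, against their brightest, while a further one of Mrpl52 gave 0.30. Mrpl54, Mrps22, Mrps28, Mrpl27 and Mrpl46 lay between 0.01 and 0.16. Mrpl11 and Mrpl1 lay at -0.02, though Mrpl11 gave -0.88 by its second probe set and 0.63 by a dimmer one. All of these but Mrpl39 lay within the error of 1 probe set, 0.45, as did 33 of the 76 genes in all.

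By subunit and by origin the groups overlapped. The 49 large-subunit genes had a median log2 difference of -0.62 for LPS minus unstimulated, with 42 lower and 11 of them past 2-fold (22.4%). This group holds Mrps30 and Mrps18a, which despite their names sit in the large subunit. Mrps30 had 186 with LPS+8-Br-cAMP, 160 with LPS and 259.5 unstimulated (-0.70 for LPS minus unstimulated). The 26 small-subunit genes had a median of -0.47, with 24 lower and 3 past 2-fold (11.5%). Mrps36, now known as part of the oxoglutarate dehydrogenase complex, belongs to neither and had 206 with LPS and 309 unstimulated (-0.59). The 29 genes without a bacterial homologue had a median of -0.70, with 9 past 2-fold, and the 47 with one had -0.48, with 5. The tunnel exit (8 genes), stalk (4 measured) and central protuberance (7) had medians of -0.42, -0.43 and -0.36.

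The 3 Mrps18 paralogs, which descend from 1 bacterial protein and take different places in the mitoribosome, differed in level between the arrays as well. Mrps18a had scaled signals of 320 with LPS+8-Br-cAMP, 174 with LPS and 263 unstimulated. Mrps18b, of the small subunit, had 235, 156 and 184 in the same order, and Mrps18c, the small-subunit paralog closest to the bacterial protein, had 299.5, 281 and 288. All 3 were lowest with LPS, but the log2 difference, LPS minus unstimulated, was -0.60 for Mrps18a, -0.24 for Mrps18b and -0.04 for Mrps18c, and only the first exceeds the error of 1 probe set. With LPS+8-Br-cAMP minus LPS they differed by 0.88, 0.59 and 0.09. Each has 1 probe set.

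LPS+8-Br-cAMP was next set beside LPS. These cultures differ in the analogue and also in the sex-linked and cell type transcripts given above, which cannot be told apart here. The comparison shares the LPS array with the one above, so a low signal on that array makes a gene both lower with LPS and higher here. Of the 76 genes 59 were higher with LPS+8-Br-cAMP (77.6%), where 53.2% of 12572 measured genes were, and the median log2 difference was 0.23, against 0.049 for all genes. At 1.5-fold, 22 were higher (28.9%) beside 18.1% of all genes, and 2 were lower (2.63%) beside 15.8%. At 2-fold, 5 were higher (6.58%) beside 6.49% of all genes, and 0 were lower beside 5.81%. Mrps27, with 9.64 against 34.9 with LPS, counts there as -0.10 because of the floor, so its size is a lower bound. The median changes sign to -0.57 on the signals as deposited, where the median of all genes is -0.65. Of genes in the same signal range 50.8% were higher, with a median of 0.011.

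The 5 genes past 2-fold were all among the 14 lowest with LPS. Mrpl47 had 121 with LPS+8-Br-cAMP and 36.8 with LPS, a log2 difference of 1.72, though its dim second probe set gave -0.25. With the floor at the 75th percentile Mrpl47 gave 0.15 and Mrps31 0.39. Mrps31 had 143 and 49.3 (1.53), and Mrpl34 had 373 and 132 (1.5). Mrpl43 had 685 with LPS+8-Br-cAMP and 254 with LPS (1.43), and Mrpl14 had 450.1 and 183 (1.30). On the LPS+8-Br-cAMP array 4 of these 5, Mrpl47, Mrpl34, Mrpl43 and Mrpl14, were at or above their unstimulated signals of 115, 295, 555 and 387. Mrpl44, of the tunnel exit and with a ribonuclease-like fold, differed by 0.96 and by 1.22 with its second probe set. Mrpl20, Mrpl58 and Mrps17 differed by 0.96, 0.87 and 0.81.

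Other genes low with LPS were also low on the LPS+8-Br-cAMP array. The 14 genes at least 2-fold lower with LPS were chosen for a low LPS signal, which favours a higher value in the next comparison. All 14 were higher with LPS+8-Br-cAMP than with LPS, as were 62.9% of the 1422 measured genes of all kinds that were 2-fold lower with LPS. Of the 14, 7 (50%) were still at least 1.5-fold under the unstimulated array, against 81.5% of all such genes. Mrpl41 had 213 with LPS+8-Br-cAMP, 158 with LPS and 462 unstimulated, and Mrps26 had 126, 111 and 271. Mrpl42 had 346, 290 and 652, and Mrpl12 had 196, 170 and 370. The other three were Mrpl50, Mrpl40 and Mrpl2. For 6 of the 7 the LPS+8-Br-cAMP signal was nearer to LPS than to unstimulated, the exception being Mrpl40, which differed by 0.65 from LPS and by -0.59 from unstimulated.

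With LPS+8-Br-cAMP 17 of the 76 genes (22.4%) were below LPS, against 46.8% of all genes, and 5 of them by more than the error of 1 probe set, 0.48. Mrpl39, the gene highest with LPS, had 416 with LPS+8-Br-cAMP and 728 with LPS (-0.81), and -0.54 by its second probe set. It was thereby back near its unstimulated 377. Mrps25 (-0.60), Mrpl37 (-0.56), Mrpl32 (-0.56) and Mrpl18 (-0.49) were the other four past that error. Mrps15, Mrpl51, Mrps21, Mrpl19 and Mrps5 lay within it, at -0.47, -0.43, -0.30, -0.27 and -0.18. Mrps27, under the floor with LPS+8-Br-cAMP, was at -0.10 or lower and is not counted as past that error. Mrpl32 is the protein whose cleavage by a mitochondrial protease is a step of mitoribosome assembly, and Mrpl18 is a central protuberance protein with a bacterial homologue. The second probe sets of Mrps5, Mrpl19 and Mrps15 gave 1.26, 0.80 and 0.083, against their brightest, and dimmer ones of Mrps5 and Mrpl19 gave -1.33 and -0.47.

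LPS+8-Br-cAMP was also set beside unstimulated cells, a comparison that shares an array with each of the others. Here 47 of the 76 genes were lower (61.8%) beside 56.2% of 12793 measured genes, and 29 higher (38.2%) beside 43.8%. At 1.5-fold 22 were lower (28.9%) beside 29.5% of all genes and 2 higher (2.63%) beside 18.5%, and at 2-fold 6 were lower (7.89%) beside 15.8% and 0 higher beside 9.36%. The median was -0.14, against -0.12 for all genes, and it was 0.027 under quantile normalization and 0.065 under cyclic loess. The lower shares lay close to or under those of all genes. Of genes in the same signal range 61.7% were lower, 35.3% by 1.5-fold and 19.5% by 2-fold, with a median of -0.25. Mrps27, under the floor with LPS+8-Br-cAMP, was at -0.75 or lower. The 6 genes past 2-fold were Mrpl51 (-1.27), Mrpl18 (-1.23), Mrpl32 (-1.22), Mrpl19 (-1.17), Mrpl41 (-1.12) and Mrps26 (-1.11). Mrpl51 had 241 with LPS+8-Br-cAMP, 324 with LPS and 580 unstimulated. Mrpl18 had 103, 145 and 243, and Mrpl32 had 117, 173 and 273, so all 3 were lowest with LPS+8-Br-cAMP and highest unstimulated. Mrpl19 read 0.68 by its second probe set, and Mrpl51 has another probe set, above the floor only with LPS, that gave 0.54 for LPS minus unstimulated.

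Of the 76 genes 42 had several probe sets, up to 8 for Mrpl15. Of the 24 genes whose 2 brightest were above the floor with LPS and unstimulated, the second probe set was lower for 20, with a median log2 difference of -0.44, against -0.13 for the second probe sets of all 4084 such genes. Of these all-gene second probe sets 58.5% were lower. Both probe sets had the same sign in 19 of the 24 (79.2%), as in 75.9% of all genes. For LPS+8-Br-cAMP minus LPS the second probe set was higher in 17 of 23 genes, with a median of 0.45, against -0.03 and 48.1% higher for all 3859 genes. Signs matched in 14 of the 23 (60.9%), as in 64.6% of all genes. So in both of these comparisons the direction of the group showed in the second probe sets, while single genes were uncertain. The group counts and medians above do not use these probe sets, though some were given for single genes. For LPS+8-Br-cAMP minus unstimulated the second probe set median was 0.098, against -0.044 by the brightest of the same 24 genes. Second probe sets read the same RNA on the same arrays, so they bear on probe set error and not on differences between cultures. Of the 32 genes with any other probe set above the floor, 12 had one of opposite sign for LPS minus unstimulated and 18 for LPS+8-Br-cAMP minus LPS.

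**Figure D3:**
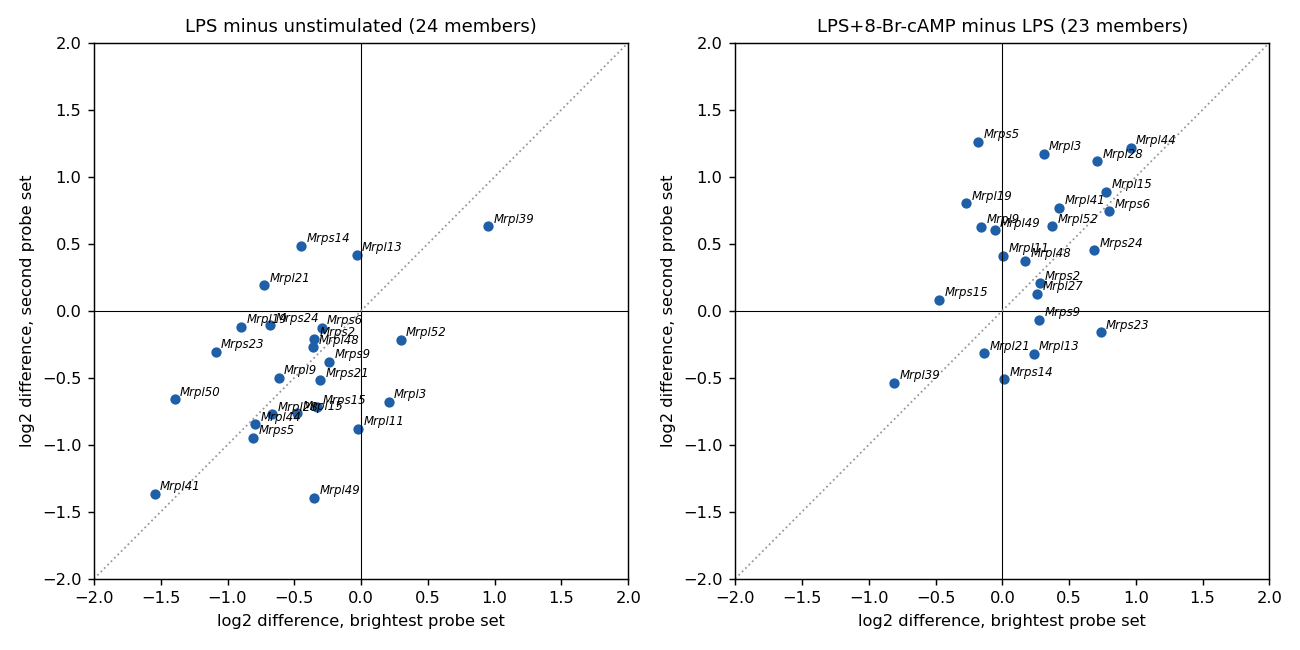
Log2 difference by the second brightest probe set against that by the brightest, for mitoribosomal genes with both above the floor on both arrays compared, in LPS minus unstimulated (24 genes) and LPS+8-Br-cAMP minus LPS (23 genes). On the left 20 of the 24 points lie below 0 on the second probe set, with Mrpl39 alone at the upper right; on the right 17 of the 23 lie above 0.

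Other genes of mitochondrial translation were read beside all measured genes, of which 61.8% were lower with LPS and 13% by 2-fold. No difference between lists was tested. Mitoribosomal proteins under other names had 4 of 4 genes lower with LPS than unstimulated (median -0.68). Dap3, a GTP-binding small-subunit protein, had 219 with LPS+8-Br-cAMP, 217 with LPS and 401 unstimulated (-0.88 for LPS minus unstimulated), Gadd45gip1 differed by -0.97, and Chchd1 and Ptcd3 by -0.48 and -0.39. Of 12 translation factors 10 were lower (83.3%, median -0.55) and 1 by 2-fold (8.33%), Mtfmt (-1.06), which formylates the initiator tRNA. The initiation factor Mtif2 differed by -0.99 and the elongation factor Tufm by -0.88, while Slirp, an RNA-binding stabiliser of mitochondrial messengers, was at 0.49. Of 23 genes of mitoribosome assembly and rRNA modification 21 were lower (91.3%, median -0.72) and 8 by 2-fold (34.8%), such as Mtg1 (-1.28), Mpv17l2 (-1.24) and Ddx28 (-1.31), and Mrm1, at 87.2 unstimulated and under the floor otherwise, at -1.42 or lower. Trmt61b was higher by 0.75.

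All 15 measured genes of mitochondrial aminoacyl-tRNA synthesis were lower with LPS (median -0.85) and 5 by 2-fold (33.3%), among them Ears2 (-1.43), Fars2 (-1.40) and Tars2, under the floor with LPS, at -1.53 or lower. Of 11 genes of mitochondrial transcription and DNA maintenance 10 were lower (90.9%, median -0.53) and 3 by 2-fold (27.3%), with Tfb2m at -1.19 and Tfam, which packages the mitochondrial genome, at -0.18. Many of these genes are dim, near the floor. For LPS+8-Br-cAMP minus LPS the medians were 0.03 for the other-named mitoribosomal proteins, -0.34 for translation factors, -0.09 for assembly, 0.12 for aminoacyl-tRNA synthesis and -0.42 for transcription and DNA maintenance, beside 0.23 for the 76 genes and 0.049 for all genes. Of 11 translation factors 9 were lower there (81.8%), beside 46.8% of all genes. Among the 9 were Gfm2 (-1.46) and Mtrf1l (-1.24), both under the floor with LPS+8-Br-cAMP, so these sizes are lower bounds. Mpv17l2 and Malsu1, which act in large-subunit assembly, were 2-fold higher, at 1.11 and 1.08, and Tars2 was higher by at least 1.92.

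Ribosomal proteins of the cytosol and subunits of the respiratory chain gave other values. Of 43 measured cytosolic ribosomal protein genes 22 were lower with LPS than unstimulated (51.2%, median -0.004), none past 2-fold. Of all measured genes 61.8% were lower and 13% by 2-fold. With LPS+8-Br-cAMP 42 of the 43 were higher than with LPS (97.7%, median 0.52), beside 53.2% of all genes. Rps25, with the largest difference of that list, had 542 with LPS+8-Br-cAMP and 184 with LPS (1.55). It has 1 probe set, far dimmer than those of most of the list. Of 77 measured subunit genes of oxidative phosphorylation (OXPHOS) 70 were lower with LPS (90.9%, median -0.28). By 1.5-fold 11 were lower (14.3%), beside 28.6% of all genes, and 0 by 2-fold. With LPS+8-Br-cAMP minus LPS 59 of 78 were higher (75.6%, median 0.38). By 2-fold 5 were higher (6.41%), such as Ndufs8 (1.65) and Cox5b (1.33), which is near the 6.49% of all genes. The mitoribosomal median was thus the lowest of these 3 groups with LPS and also with LPS+8-Br-cAMP minus LPS, 0.23. Many genes of the other lists are far brighter, such as Rps3a1 at 10462 and Cox4i1 at 3858 with LPS. Genes of a signal range like theirs were not set beside them.

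**Figure D4:**
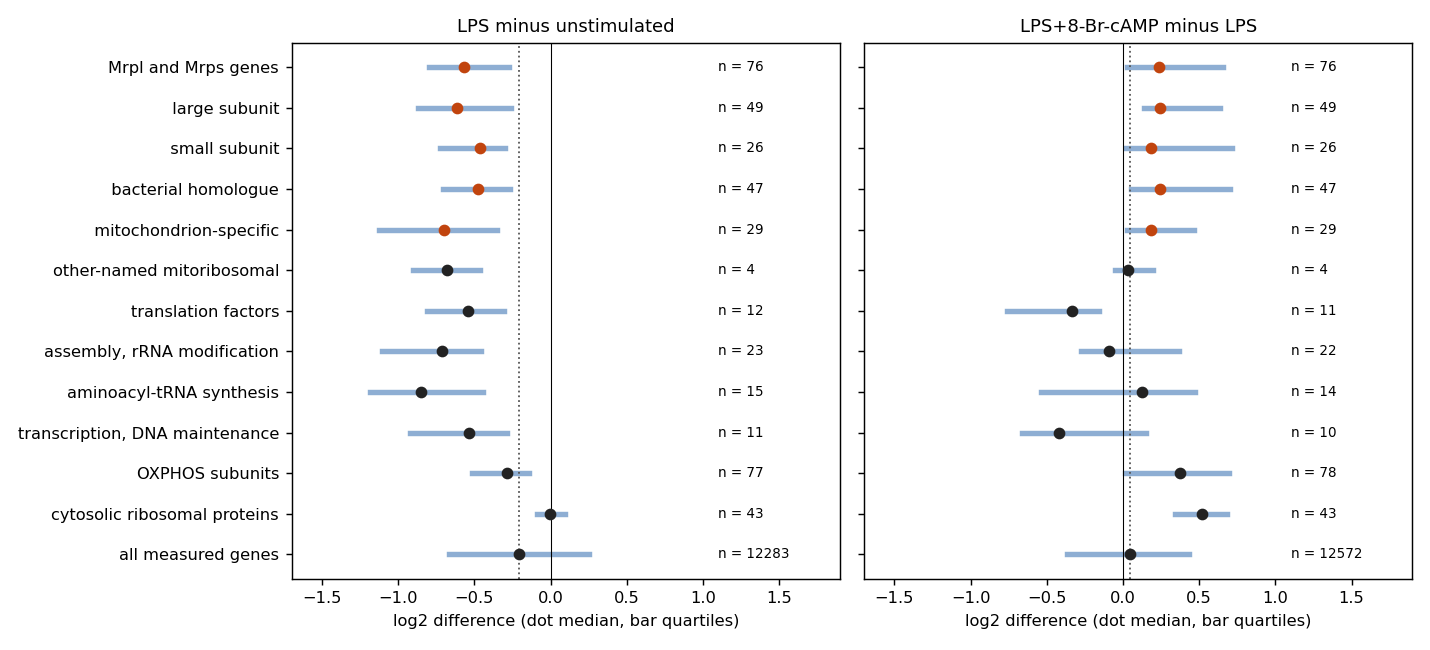
Median log2 difference (dots) with the range between quartiles (bars) for the mitoribosomal genes and their subgroups (orange) and for other gene lists (black), in LPS minus unstimulated and LPS+8-Br-cAMP minus LPS, with the number of measured genes. The dotted line is the median of all measured genes, -0.21 on the left and 0.049 on the right; of the lists drawn, all but the cytosolic ribosomal proteins lie left of it with LPS, and that list lies farthest right of those drawn with LPS+8-Br-cAMP (0.52).

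Regulators of mitochondrial biogenesis had no common direction. Gabpb1, a subunit of the ETS-type factor GABP, had 262 with LPS+8-Br-cAMP, 220 with LPS and 68.0 unstimulated, higher by 1.70 for LPS minus unstimulated. Gabpb2 had 87.8, 39.4 and 147 (-1.90), and Gabpa, the DNA-binding subunit, had 171, 179 and 182 (-0.02). Ppargc1b, a coactivator, had 114 unstimulated and lay under the floor on the other arrays, at -1.81 or lower with LPS. Nrf1, the nuclear respiratory factor, had 129 with LPS+8-Br-cAMP, 216 with LPS and 131 unstimulated (0.72). The coactivator Pprc1 differed by -1.26 for LPS+8-Br-cAMP minus LPS, and Myc, under the floor with LPS+8-Br-cAMP, was at -1.03 or lower there. In all, 7 of 11 measured regulators were higher with LPS (63.6%, median 0.06), beside 38.2% of all measured genes. Slirp, Trmt61b, Tfam and Gabpa are named for their values and roles, chosen after those values were seen.

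RefSeq promoters (GRCm38.p6, 250 bases before to 50 after the start) were found for 67 of the 76 genes and searched on both strands for 4 motifs. The NRF1 motif (GCGCA, any base, then GCGC) was in 12 of the 67 (17.9%), in 5.19% of the 27025 genes of the table and in 10.9% of its 9925 genes measured with LPS or unstimulated. CCGGAAG, of ETS factors such as GABP, was in 25 (37.3%), against 9.93% and 19%. ATGGCGGC, of YY1, was in 11 (16.4%), against 2.60% and 5.27%, but in 10 of these 11 it lay after the transcript start and its letters open with ATG, as a start codon does. TGACGTCA, the cyclic AMP response element (CRE), was in 2 (2.99%), against 2.03% and 3.43%. No 2 different motifs overlapped in a member's promoter. A match is a description and not a shown binding site. The 12 genes with the NRF1 letters had a median log2 difference, LPS minus unstimulated, of -0.64, and the others -0.55. With or without the ETS letters the medians were -0.50 and -0.59.

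The first match of the NRF1 letters in each of the 12 promoters follows, because it gives the sequence that they share. Mrps26 holds 2 matches, which overlap, and Mrpl45 holds 3, of which the others are not shown. Matches are in capitals with the bases around them in lower case, on the gene's strand, from the gene lowest with LPS to the highest. Where the match is on the other strand, as for Mrpl12, Mrps21 and Mrps9, the capitals show its reverse complement. Of these 12 genes 11 were lower with LPS, beside 67 of all 76 (88.2%) and 61.8% of all measured genes. The last, Mrpl39, was the highest of all 76.
Mrps26 chr2:130563745-130563774, plus strand: tccgggccggGCGCAGGCGCAGGCGCtggc
Mrpl12 chr11:120484546-120484575, plus strand: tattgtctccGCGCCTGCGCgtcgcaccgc
Mrpl14 chr17:45686343-45686372, plus strand: aacccctggcGCGCAGGCGCagcgtgcggg
Mrpl57 chr14:57826172-57826201, plus strand: tttgaatcctGCGCAGGCGCagaaggcgtc
Mrpl44 chr1:79775973-79776002, plus strand: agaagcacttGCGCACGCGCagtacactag
Mrpl32 chr13:14613105-14613134, minus strand: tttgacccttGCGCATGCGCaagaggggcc
Mrpl9 chr3:94443298-94443327, plus strand: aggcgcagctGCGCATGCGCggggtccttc
Mrpl45 chr11:97315586-97315615, plus strand: gaagcctcctGCGCAGGCGCagctggctct
Mrpl17 chr7:105811117-105811146, minus strand: aggctctgatGCGCACGCGCaaacgcggta
Mrps21 chr3:95871586-95871615, minus strand: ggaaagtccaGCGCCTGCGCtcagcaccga
Mrps9 chr1:42851218-42851247, plus strand: tgggaggtctGCGCCTGCGCagtctccagg
Mrpl39 chr16:84735350-84735379, minus strand: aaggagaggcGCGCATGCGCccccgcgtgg

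Whole promoters are shown for the lowest and highest genes of LPS minus unstimulated, Mrps31 (-1.65), Mrpl47 (-1.64), Mrpl55 (0.35) and Mrpl39 (0.95), since these mark the ends of the group's range. Capitals mark matches to the motifs above. Mrpl39 alone of the 4 holds one, the NRF1 letters, which read the same on both strands, and Mrps31, Mrpl47 and Mrpl55 hold none in this window.
Mrps31 promoter, chr8:22411090-22411389, plus strand: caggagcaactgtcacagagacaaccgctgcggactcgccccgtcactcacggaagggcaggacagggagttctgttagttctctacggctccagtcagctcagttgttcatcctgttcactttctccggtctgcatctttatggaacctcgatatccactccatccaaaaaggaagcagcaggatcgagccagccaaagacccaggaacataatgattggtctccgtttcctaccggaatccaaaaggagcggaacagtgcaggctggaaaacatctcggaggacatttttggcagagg
Mrpl47 promoter, chr3:32736706-32737005, minus strand: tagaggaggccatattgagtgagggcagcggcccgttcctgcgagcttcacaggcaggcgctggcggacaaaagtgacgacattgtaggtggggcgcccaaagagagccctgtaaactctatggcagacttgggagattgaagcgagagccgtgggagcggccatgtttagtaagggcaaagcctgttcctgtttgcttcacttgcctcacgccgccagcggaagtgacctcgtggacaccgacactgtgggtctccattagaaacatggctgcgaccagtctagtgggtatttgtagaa
Mrpl55 promoter, chr11:59202236-59202535, plus strand: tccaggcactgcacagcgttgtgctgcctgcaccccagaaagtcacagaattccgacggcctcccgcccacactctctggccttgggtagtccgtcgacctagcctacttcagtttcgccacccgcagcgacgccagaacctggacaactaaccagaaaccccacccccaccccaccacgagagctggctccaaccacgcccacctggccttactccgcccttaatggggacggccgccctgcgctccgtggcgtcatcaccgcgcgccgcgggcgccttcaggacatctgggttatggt
Mrpl39 promoter, chr16:84735195-84735494, minus strand: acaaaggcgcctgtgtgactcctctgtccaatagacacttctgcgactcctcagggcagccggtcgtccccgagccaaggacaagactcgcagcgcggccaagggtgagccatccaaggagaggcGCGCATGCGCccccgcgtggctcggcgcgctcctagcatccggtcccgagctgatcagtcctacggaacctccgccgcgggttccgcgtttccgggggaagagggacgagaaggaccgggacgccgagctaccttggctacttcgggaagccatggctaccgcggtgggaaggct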

How the data were processed

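Total RNA of 3 BMDC cultures was labelled as biotinylated cRNA and hybridised to 1 array each, per the labels' protocols. The deposited intensity of each probe set is linear and came from MAS5, per the submitters' processing notes, and no source used here gives its version, settings or target. Columns were matched to conditions by sample label.

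From 45101 probe sets 64 controls were left out. GEO's platform annotation names 1 gene for 34945 probe sets, several for 932 and none for 9160. The deposited intensity was scaled to a common mean trimmed by 2% at each end (factors 1.63 for LPS+8-Br-cAMP, 0.929 for LPS and 0.763 for unstimulated), floored at 32.5 and taken to log2. A gene was its brightest single-gene probe set, counted as measured when above the floor on at least 1 array compared. Where 1 array lay under the floor, the size of a difference is a lower bound. Python 3.11.15, pandas 2.3.3 and, for cyclic loess, limma 3.58.1 in R 4.3.3 were used, and the steps were tested on simulated data. All 76 members matched RefSeq by symbol.

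Genes named were the 10 highest and 10 lowest members for LPS minus unstimulated and for LPS+8-Br-cAMP minus LPS, all members past 2-fold, those whose probe sets disagree, Mrps18a, Mrps18b, Mrps18c, Mrpl12, Mrps36, Mrps30 and Mrpl58, and, of each other list, up to 4 genes with the largest difference in each of those comparisons. Of genes whose probe sets disagree, those described otherwise are named and the rest counted. The members and lists were chosen with earlier results of these data known. Alternatives were other scalings, floors, probe set choices, memberships and fold thresholds.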

Additional observations from a re-analysis of the deposited data

How the results depend on the processing

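The counts and medians of the 76 genes were recomputed under other settings 1 at a time. Of these values 120 stayed close, 41 moved and 4 changed sign. A change of sign was counted only where the main value was at least 0.1 in size. The median relative to all genes for LPS+8-Br-cAMP minus unstimulated was smaller than that, and it took either sign, from -0.14 to 0.12. For LPS minus unstimulated the median was -0.45 under quantile normalization, -0.43 under cyclic loess, -0.86 under spike scaling, -0.85 as deposited, -0.45 with the floor at the 75th percentile, -0.46 over genes with several probe sets and -0.44 by the second probe set. Relative to all genes it ran from -0.38 to -0.24, with -0.24 at the 75th percentile floor and -0.26 over genes with several probe sets. The 14 genes at least 2-fold lower became 29 under spike scaling, 27 as deposited, 9 with a pseudocount, 9 over genes with several probe sets, 38 at 1.5-fold and 2 at 3-fold, and the 0 higher became 1 under median scaling and 1 at 1.5-fold. Of the 14, 10 remained 2-fold lower under cyclic loess. For LPS+8-Br-cAMP minus LPS the median was 0.37 under spike scaling, -0.57 as deposited and 0.45 by the second probe set, and as deposited it was 0.075 relative to all genes. The 5 genes 2-fold higher became 9 under spike scaling, 0 as deposited, 3 at the 75th percentile floor, 3 over genes with several probe sets, 22 at 1.5-fold and 1 at 3-fold. The 0 lower became 9 as deposited, 1 at the 25th percentile floor and 2 at 1.5-fold. For LPS+8-Br-cAMP minus unstimulated the median was 0.027 under quantile normalization, 0.065 under cyclic loess, 0.098 by the second probe set, -0.34 under spike scaling and -1.22 as deposited, and relative to all genes -0.14 as deposited and 0.12 relative to genes in the same signal range. The 6 genes 2-fold lower became 2, 1, 13 and 55 under quantile normalization, cyclic loess, spike scaling and as deposited, 22 at 1.5-fold and 0 at 3-fold, and the 0 higher became 1 with probe sets ending in _at and 2 at 1.5-fold. With those probe sets Mrpl19 gave 0.68 in place of -1.17. The cause of these shifts was not tested. The second probe set, the genes in the same signal range and the genes above the floor on all arrays were chosen after seeing the data. No paired analysis was possible because each condition had 1 array.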

Other observations

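Probe sets shared with a second gene were left out of the comparisons. The probe set of Mrpl53 and Ccdc142 had a scaled signal of 186 with LPS+8-Br-cAMP, 208 with LPS and 269 unstimulated. Of the pair for Mrpl30 and Gm6238 the brighter had 964, 690 and 1029 in the same order, and the dimmer had 126, 112 and 121, highest with LPS+8-Br-cAMP. A probe set of Mrps34 and Nme3 had 75.8, 66.5 and 126, and the probe set of Mrps34 alone had 391, 330 and 560.5. All of these but the dimmer one of Mrpl30 were highest unstimulated.

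A pair of single probe sets, chosen after their values were seen, stood out from the brightest of their gene. One of Mrpl15 had 149 with LPS+8-Br-cAMP, 63.4 with LPS and 231 unstimulated, a log2 difference of -1.87 for LPS minus unstimulated, against -0.48 by the brightest of that gene. One of Mrpl9 had 40.4, 71.4 and 194 in the same order, and differed by -2.26 for LPS+8-Br-cAMP minus unstimulated, against -0.78.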
